A study of Homo sapiens with 12 samples.

Results

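The genes described here encode the enzymes of glycolysis, the glucose transporters that feed it, the enzymes that set its rate through fructose 2,6-bisphosphate, and the enzymes that decide whether pyruvate becomes lactate or enters the mitochondrion. Members were chosen by symbol, with earlier results of these data known. Every probe set that the platform annotation assigned to any of the 32 listed genes was taken. Of these, 30 genes had a probe set, 70 probe sets in all, out of 19775 genes named on the array. SLC16A1 and SLC16A3, which encode lactate carriers, had no probe set under their symbol in the annotation and were not analysed here. Another 2 probe sets that name SLC2A3 together with a near-identical neighbour, SLC2A14, were left out, and 3 GAPDH control probe sets are described with the array controls. Each gene was represented by the probe set with the highest mean signal. For 29 of the 30 genes that mean reached 2.11 on the log2 scale, the median over all probe sets, and these 29 were tested. SLC2A3, the high-affinity glucose transporter GLUT3, did not reach it, and its signal was below the highest unspiked bacterial control on all 12 arrays.

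Glycolysis splits glucose into pyruvate in the cytosol and yields ATP without oxygen. Hexokinase, phosphofructokinase and pyruvate kinase catalyse its steps that run one way in cells, and fructose 2,6-bisphosphate is the strongest allosteric activator of phosphofructokinase. Pyruvate is reduced to lactate by lactate dehydrogenase or oxidised by the pyruvate dehydrogenase complex, which the PDK kinases switch off by phosphorylation. In prostate carcinoma cells as in many tumours, hypoxia-inducible factor and MYC are known regulators of these genes.

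RNA was measured on Affymetrix U133 Plus 2.0 arrays. The cells were 22Rv1, a human prostate carcinoma line in long use, grown in RPMI medium with fetal bovine serum, penicillin and streptomycin. The 4 groups of 3 arrays each were vehicle-treated cells and cells treated for 4 h, 6 h or 16 h with 1 small compound, which the title presents as a chemical inhibitor of the homeodomain transcription factor ONECUT2. The vehicle arrays carry no treatment time, the titles of the 16 h arrays lack a code element of unstated meaning that all others carry, and no dose is spelled out, so that compound, culture time and anything else that differed with those titles cannot be told apart at 16 h. All groups come from 1 line, nothing states that replicates were separate cultures, and the p-values therefore reflect array-to-array spread that may be purely technical. Fewer cells expressing a gene and less RNA of it per cell cannot be told apart in such bulk samples.

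All values are log2 signals, and a difference of 1 is a doubling. A gene rose or fell where limma's moderated test over all 12635 tested genes gave a Benjamini-Hochberg adjusted p below 0.05 (two-sided, 3 arrays a group). All 7 luminal prostate markers with a probe set (FOXA1, HOXB13, KLK3, KRT8, KRT18, EPCAM and CDH1) were above the highest unspiked control on every array, as were 0 of 4 leukocyte, 1 of 4 endothelial and 3 of 5 fibroblast markers (PECAM1, COL1A1, DCN and LUM). The mean signal of the fibroblast markers lay between 3.48 and 3.64 on the 16 h arrays, against 2.99 to 3.19 on the vehicle arrays. That of the luminal markers lay between 8.60 and 8.76 on the 16 h arrays, against 8.82 to 8.87 on the vehicle arrays, so neither list's ranges overlapped. The 5' ACTB control averaged 9.03 ± 0.13 at 16 h and 10.41 ± 0.04 in vehicle, and the 18S control 11.06 ± 0.10 at 16 h and 9.62 ± 0.29 in vehicle (SD, n = 3 each). Both gave p = 0.1 in an exact permutation test (two-sided), and 3 against 3 arrays allow no smaller value. The 3' minus 5' difference of ACTB, a measure of RNA integrity and labelling, was 4.09 ± 0.09 at 16 h and 2.80 ± 0.07 in vehicle (SD, n = 3 each), with the same exact permutation p of 0.1 and no overlap. The part of these differences in the results was not tested. GAPDH is itself a member, and its control probe sets gave a 3' minus 5' difference of -0.43 ± 0.04 on 16 h arrays and -0.46 ± 0.02 on vehicle arrays (SD, n = 3 each).

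At 16 h genes of the pathway moved in both directions. Pyruvate kinase (PKM), the liver-type phosphofructokinase (PFKL) and the kinase PDK3 fell most, while the fructose 2,6-bisphosphate enzymes PFKFB3 and TIGAR and the kinase PDK4 rose most. Of the 29 tested members 12 rose and 6 fell, and 11 did not pass. These are 41.4% and 20.7% of the members, beside 26% of all tested genes that rose and 16.8% that fell. Counting both directions, 18 members or 62.1% changed, beside 42.8% of all genes. The share of members stands above a background that is itself high, and the difference between these shares was not tested. Because the members were chosen with earlier results of these data known, the shares cannot show that the pathway changed more than other genes. The median log2 change of the members was 0.09, and that of all genes 0.05. On 20 members, or 69%, the 16 h and vehicle arrays did not overlap, beside 51.5% of all genes, and this share was not counted at the higher signal.

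**Figure D1:**
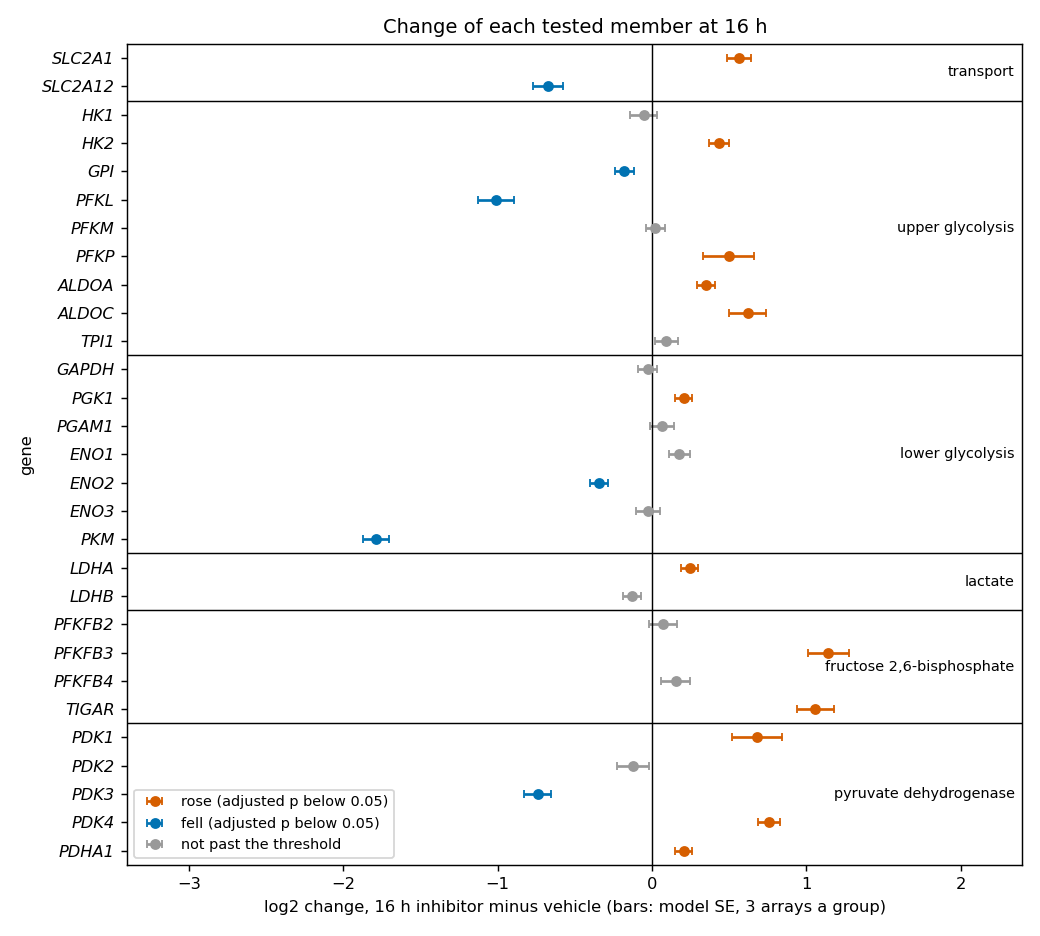
Log2 change of the 29 tested members at 16 h against vehicle (horizontal axis), by gene in pathway order (vertical axis); points are estimates, bars the model SE from 3 arrays a group, and colour the call. PKM at -1.79 and PFKL at -1.01 lie farthest left, and PFKFB3 at 1.14 and TIGAR at 1.06 farthest right.

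In the distribution over all genes, 0.0871% of genes fell more than PKM and 0.981% fell more than PFKL, whereas 2.01% rose more than PFKFB3 and 2.38% more than TIGAR. PDK3 and SLC2A12 were about as far out, with 2.58% and 3.24% of genes falling more, and 5.07% of genes rose more than PDK4. For the other members that passed, between 6.29% and 31.3% of genes rose more, or 11.7% and 22.8% fell more.

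**Figure D2:**
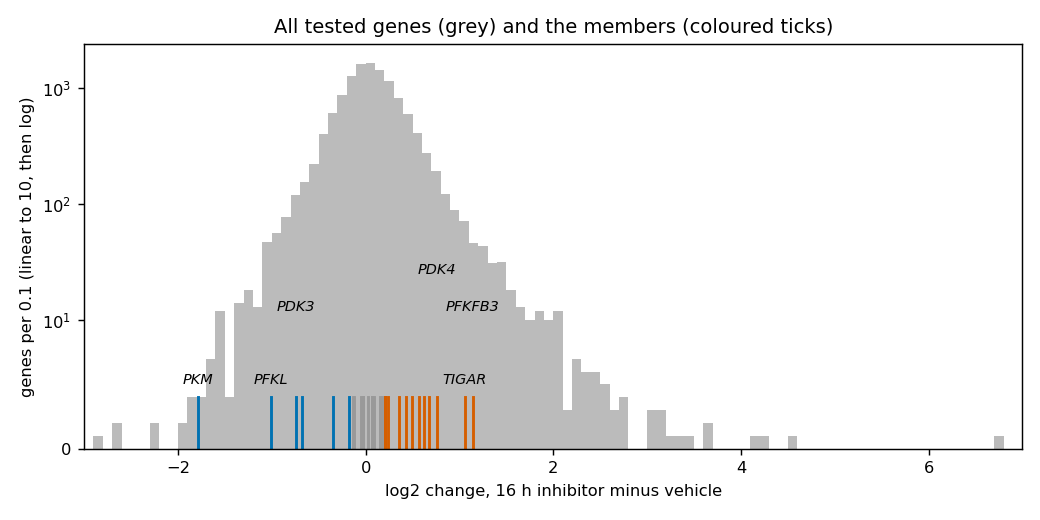
Number of tested genes in bins of 0.1 of the log2 change at 16 h against vehicle (grey bars, vertical axis linear to 10 and logarithmic above), with each of the 29 members as a tick coloured orange for a rise, blue for a fall and grey for no call. PKM stands in the left tail at -1.79, and the other members lie on both sides of 0.

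The promoters of the 3 members with the largest rises and the 2 with the largest falls are shown because their transcripts moved in opposite directions on the same arrays. Each is the 250 bases upstream of an annotated start site (RefSeq, GRCh38.p14), 5′ to 3′ on the gene's strand, and capitals mark ACGTG or GCGTG on either strand, the core letters of the hypoxia response element. PFKFB3 has 2 annotated starts, at chr10:6144671-6144920 and chr10:6202682-6202931 on the plus strand. The other windows are TIGAR at chr12:4320963-4321212 (plus), PDK4 at chr7:95596517-95596766 (minus), PKM at chr15:72231191-72231440 (minus) and PFKL at chr21:44299803-44300052 (plus).
PFKFB3, upstream start: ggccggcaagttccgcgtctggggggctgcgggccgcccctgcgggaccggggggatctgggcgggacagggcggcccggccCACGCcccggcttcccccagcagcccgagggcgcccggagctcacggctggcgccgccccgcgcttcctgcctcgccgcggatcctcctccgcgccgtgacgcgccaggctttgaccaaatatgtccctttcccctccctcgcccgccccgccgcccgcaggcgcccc
PFKFB3, downstream start: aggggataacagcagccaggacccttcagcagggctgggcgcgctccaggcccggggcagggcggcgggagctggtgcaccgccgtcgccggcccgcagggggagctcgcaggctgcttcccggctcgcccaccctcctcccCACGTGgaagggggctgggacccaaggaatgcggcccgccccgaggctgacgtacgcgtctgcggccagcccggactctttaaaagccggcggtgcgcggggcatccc
TIGAR: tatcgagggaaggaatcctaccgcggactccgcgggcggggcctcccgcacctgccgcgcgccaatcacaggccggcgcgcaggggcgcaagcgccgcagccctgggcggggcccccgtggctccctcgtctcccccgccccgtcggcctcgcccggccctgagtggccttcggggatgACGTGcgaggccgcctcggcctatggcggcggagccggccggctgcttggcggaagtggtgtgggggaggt
PDK4: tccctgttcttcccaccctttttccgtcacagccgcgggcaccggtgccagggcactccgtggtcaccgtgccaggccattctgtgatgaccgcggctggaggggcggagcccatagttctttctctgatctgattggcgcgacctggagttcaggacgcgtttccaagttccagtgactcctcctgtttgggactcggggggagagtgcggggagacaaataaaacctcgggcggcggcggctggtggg
PKM: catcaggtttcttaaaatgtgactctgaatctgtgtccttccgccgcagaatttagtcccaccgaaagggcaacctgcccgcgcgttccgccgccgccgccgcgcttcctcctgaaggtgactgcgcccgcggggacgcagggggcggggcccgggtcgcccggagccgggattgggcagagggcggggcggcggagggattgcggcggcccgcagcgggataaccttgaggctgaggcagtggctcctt
PFKL: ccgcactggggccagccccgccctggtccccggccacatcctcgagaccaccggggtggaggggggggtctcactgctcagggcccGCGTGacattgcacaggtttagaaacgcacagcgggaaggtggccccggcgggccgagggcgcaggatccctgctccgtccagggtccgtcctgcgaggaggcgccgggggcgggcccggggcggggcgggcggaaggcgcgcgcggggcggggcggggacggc
The downstream PFKFB3 window holds CACGTG, an E-box that reads as ACGTG on both strands. TIGAR has 1 ACGTG and PFKL 1 GCGTG, while the PDK4 and PKM windows have no match, which says only that these letters are not in these 250 bases. Over the tested members with a window, ACGTG was found for 9 of 12 genes that rose, 3 of 6 that fell and 4 of 10 that did not pass. Among all tested genes with a window, 28.5% held it, with 29.7% of those that rose, 29.8% of those that fell and 27.6% of the rest. GCGTG was found for 7 of 12 members that rose, 2 of 6 that fell and 6 of 10 that did not pass, beside 52.8% of all tested genes. Either motif was found for 10 of 12, 4 of 6 and 8 of 10 members in the same order, beside 64.3% of all tested genes. Among all 35116 windows of this length from RefSeq, 18.5% held ACGTG, 32.2% GCGTG and 6.34% CACGTG. Genes with several start sites have more windows, and the members were chosen with earlier results of these data known. These shares are therefore descriptions without a test.

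Glucose entry moved in both directions. SLC2A1, which encodes the widespread basal transporter GLUT1, had signals of 6.47, 6.39 and 6.67 on the 16 h arrays, against 6.00, 5.96 and 5.86 on the vehicle arrays. All 16 h arrays lay above all vehicle arrays, and SLC2A1 rose 1.48-fold (log2 change 0.56 ± 0.08 SE, adjusted p = 0.000115, limma). Its second tested probe set, which was near background at a mean of 2.12, gave -0.12. SLC2A12, which encodes GLUT12, a transporter described in prostate and breast cancer cells, had 3.74, 3.73 and 3.84 at 16 h, against 4.49, 4.51 and 4.34 in vehicle. It fell 1.6-fold (-0.68 ± 0.10 SE, adjusted p = 0.000219), again without overlap.

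In the upper part of the pathway, from glucose to triose phosphates, 4 of 9 genes rose, 2 fell and 3 did not pass. Hexokinase 2 (HK2), the inducible isozyme that traps glucose as its phosphate, had 10.08, 10.12 and 10.18 at 16 h, against 9.71, 9.58 and 9.79 in vehicle. HK2 rose 1.35-fold (0.43 ± 0.07 SE, adjusted p = 0.000265), whereas hexokinase 1 (HK1) had a log2 change of -0.05 ± 0.09 SE with overlapping arrays. The isomerase GPI fell 1.13-fold (-0.18 ± 0.06 SE, adjusted p = 0.0327). This call was lost without vehicle replicate 1 or 2 (adjusted p = 0.0921 and 0.0804) and without 16 h replicate 1 or 2 (0.075 and 0.107).

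The 3 phosphofructokinase genes, whose products catalyse the main committed step, diverged. PFKL had 5.73, 5.34 and 5.60 at 16 h, against 6.65, 6.45 and 6.61 in vehicle, so that every 16 h array lay well below every vehicle array. It fell 2.02-fold (-1.01 ± 0.12 SE, adjusted p = 4e-05). Its second probe set gave -0.20 ± 0.10 SE and did not pass among all probe sets (adjusted p = 0.128). PFKM, the muscle-type gene and in these cells well above background, had 9.80, 9.67 and 9.76 at 16 h, against 9.73, 9.80 and 9.64 in vehicle, with a log2 change of 0.02 ± 0.06 SE. PFKP, the platelet-type gene, had 5.16, 5.37 and 5.93 at 16 h, against 4.98, 5.14 and 4.84 in vehicle. PFKP rose 1.41-fold (0.50 ± 0.16 SE, adjusted p = 0.0279), but the highest array carried much of this rise. Without 16 h replicate 3 its log2 change was 0.27 (adjusted p = 0.0859), and the call was also lost without vehicle replicate 1 (0.0656) or vehicle replicate 3 (0.0938).

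Both aldolase genes, whose products split fructose bisphosphate, rose. ALDOA had 11.84, 11.77 and 11.93 at 16 h, against 11.50, 11.47 and 11.51 in vehicle (1.28-fold, 0.35 ± 0.06 SE, adjusted p = 0.000564). All 3 of its probe sets rose, by 0.32 to 0.49 on the log2 scale. ALDOC had 4.93, 5.17 and 5.32 at 16 h, against 4.59, 4.42 and 4.56 in vehicle, and rose 1.54-fold (0.62 ± 0.12 SE, adjusted p = 0.00148). Triose phosphate isomerase (TPI1) had overlapping arrays and a log2 change of 0.09 ± 0.07 SE.

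**Figure D3:**
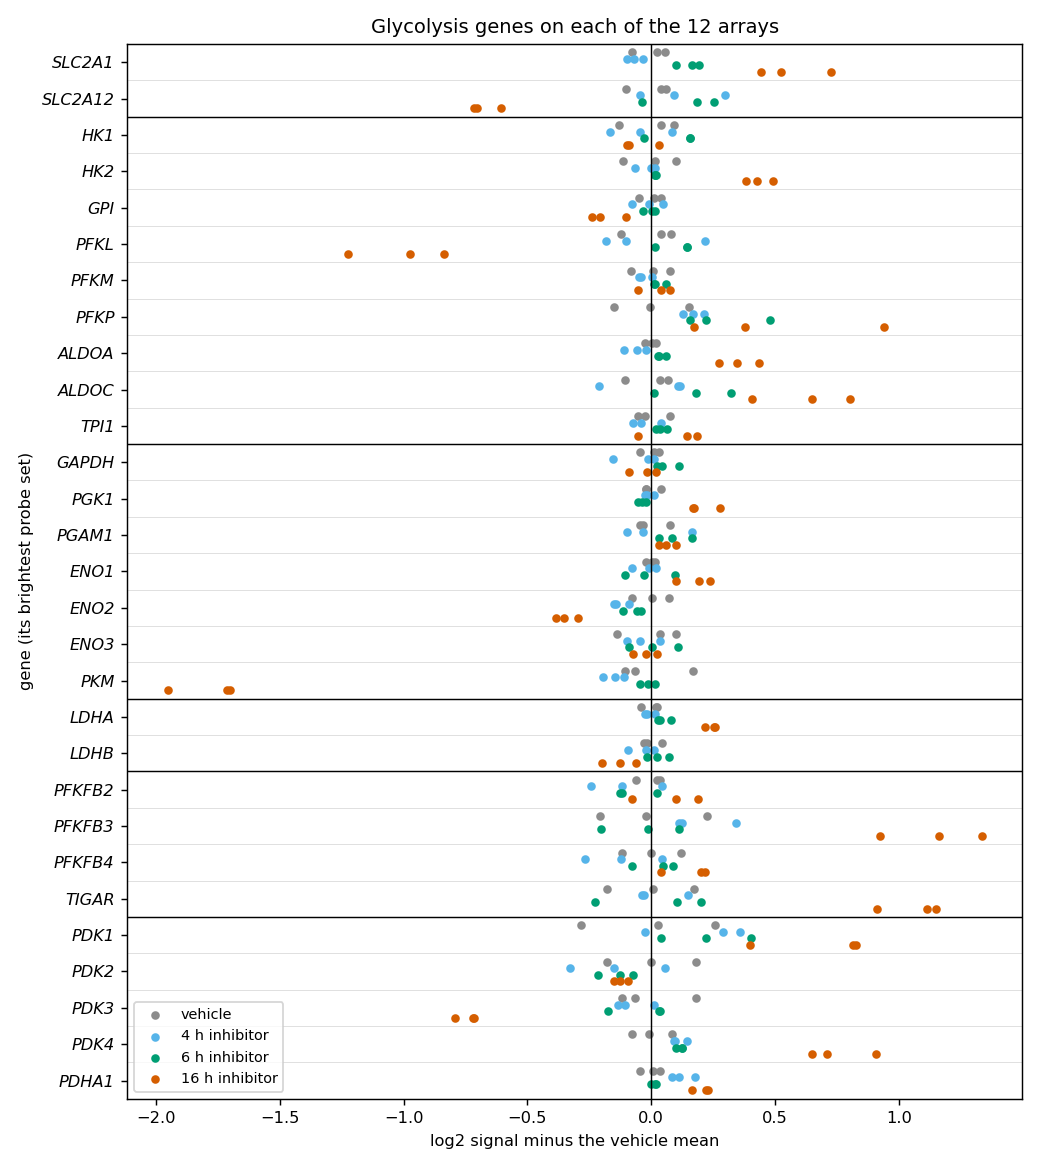
Log2 signal minus the vehicle mean (horizontal axis) of the 29 tested members (vertical axis, in pathway order) on each of the 12 arrays; each point is 1 array, coloured by group. For PKM, PFKL, PFKFB3, TIGAR, PDK3 and PDK4 the 16 h arrays stand apart from all others, and the 4 h and 6 h arrays lie near the vehicle arrays.

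The lower part, from triose phosphate to pyruvate, held the largest change of the pathway. PKM encodes pyruvate kinase M, the last enzyme of glycolysis, which is spliced into M1 and M2 forms, and its signal was not assigned to either form here. Its signals were 8.13, 8.37 and 8.38 at 16 h, against 10.25, 9.98 and 10.02 in vehicle. PKM fell 3.45-fold (-1.79 ± 0.09 SE, adjusted p = 4.7e-08). The 4 h arrays were at 9.94, 9.89 and 9.97 and the 6 h arrays at 10.10, 10.07 and 10.04, so that PKM passed at 16 h alone among the 3 times. A second PKM probe set with a low mean signal of 2.71 went the other way, with 2.89, 3.05 and 3.01 at 16 h against 2.42, 2.66 and 2.74 in vehicle. That probe set rose by 0.38 ± 0.10 SE (adjusted p = 0.00944 among 27306 probe sets), which makes PKM the 1 member whose probe sets were called in opposite directions at 16 h against vehicle.

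The other lower enzymes changed little in size. PGK1, the first ATP-yielding enzyme, had 11.53, 11.53 and 11.64 at 16 h, against 11.34, 11.34 and 11.40 in vehicle, and rose 1.15-fold (0.20 ± 0.06 SE, adjusted p = 0.0104). Of its 5 tested probe sets the brightest alone was called, and 2 had negative values, so the direction of PGK1 depends on the probe set. GAPDH, which oxidises glyceraldehyde 3-phosphate, had 12.90, 12.79 and 12.86 at 16 h, against 12.91, 12.89 and 12.84 in vehicle (-0.03 ± 0.06 SE). PGAM1, which moves the phosphate on phosphoglycerate, had a log2 change of 0.06 ± 0.08 SE. Neither gene's groups were separated.

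The 3 enolase genes, whose products make phosphoenolpyruvate, gave 3 different results. ENO2, the neuronal-type isozyme and a known neuroendocrine marker, had 7.47, 7.38 and 7.41 at 16 h, against 7.77, 7.84 and 7.69 in vehicle, and fell 1.27-fold (-0.34 ± 0.06 SE, adjusted p = 0.000712). ENO1, the widespread isozyme, had 11.09, 11.00 and 11.14 at 16 h, against 10.92, 10.88 and 10.90 in vehicle. Its arrays did not overlap, but its log2 change of 0.18 ± 0.07 SE missed the threshold (adjusted p = 0.0529). A second ENO1 probe set had 8.82, 8.77 and 8.83 at 16 h, against 9.35, 9.27 and 9.38 in vehicle, and fell by 0.52 ± 0.09 SE (adjusted p = 0.000812 among probe sets). The brightest ENO1 probe set and this one therefore differ in sign. ENO3, the muscle isozyme, was near background with a mean of 2.60 at 16 h and 2.62 in vehicle.

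At the pyruvate to lactate step, LDHA, whose subunit favours lactate formation, had 12.54, 12.58 and 12.58 at 16 h, against 12.28, 12.34 and 12.34 in vehicle. It rose 1.18-fold (0.24 ± 0.05 SE, adjusted p = 0.00297). LDHB, the heart-type subunit, had 12.26, 12.18 and 12.32 at 16 h, against 12.43, 12.37 and 12.36 in vehicle. The LDHB arrays did not overlap, yet its change of -0.13 ± 0.06 SE did not pass (adjusted p = 0.109), and its other probe set gave -0.12. These signals are near the top of the array's range, which ended at 13.77. Probe sets of the _x_at and _s_at classes can bind transcripts of related genes and pseudogenes. They number 36 of the 70 member probe sets. Among them are the brightest of GAPDH, LDHA, LDHB, TPI1, ALDOA, PGK1, ENO1, GPI, PFKL, PFKFB3, SLC2A1 and SLC2A12.

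Among the enzymes of fructose 2,6-bisphosphate, 2 of 4 rose and none fell. PFKFB3, the inducible enzyme with a strong bias towards making this activator, had 7.13, 7.54 and 7.37 at 16 h, against 6.00, 6.18 and 6.43 in vehicle. PFKFB3 rose 2.21-fold (1.14 ± 0.13 SE, adjusted p = 3.77e-05), with every 16 h array above every other array. TIGAR, a p53-inducible phosphatase that degrades fructose 2,6-bisphosphate, had 7.84, 8.08 and 8.04 at 16 h, against 6.75, 6.93 and 7.10 in vehicle. TIGAR rose 2.08-fold (1.06 ± 0.12 SE, adjusted p = 3.58e-05). The transcripts of a maker and of a remover of the same metabolite were thus both higher at 16 h. PFKFB2, the heart-type isozyme, had a log2 change of 0.07 ± 0.09 SE on its brightest probe set, while a dimmer one rose by 0.27 ± 0.10 SE (adjusted p = 0.0476 among probe sets). PFKFB4, which like PFKFB3 is known to be inducible by hypoxia, had 3.87, 3.71 and 3.88 at 16 h, against 3.67, 3.79 and 3.55 in vehicle (0.15 ± 0.09 SE, adjusted p = 0.213).

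**Figure D4:**
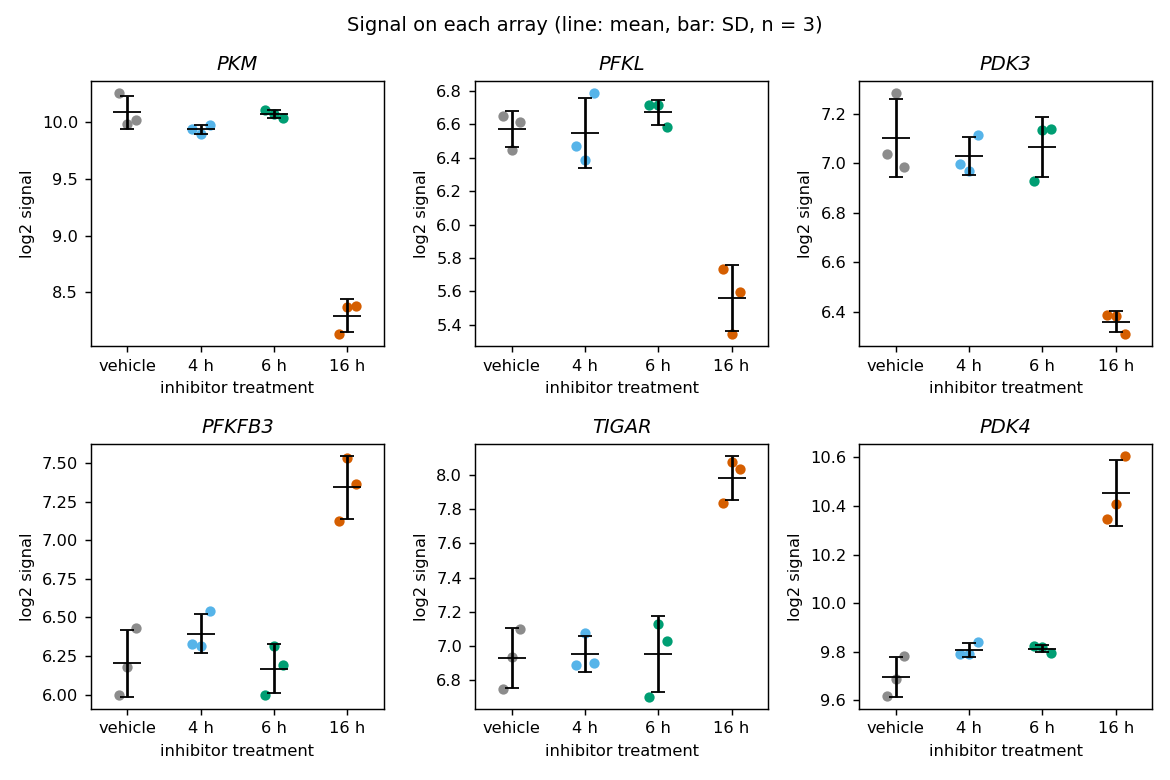
Log2 signal (vertical axis) on each array of the vehicle, 4 h, 6 h and 16 h groups (horizontal axis) for PKM, PFKL, PDK3, PFKFB3, TIGAR and PDK4; points are arrays, lines means and bars SDs (n = 3). In each panel the 3 arrays of the 16 h group lie outside the range of the other 9.

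At the entry to the mitochondrion 3 of 5 members rose and 1 fell. Of further pyruvate genes, MPC2, DLAT and PDHB fell and PDP1 rose, with values given below. MPC1, DLD, PDHX, PDPR and PC did not pass. PDK4, the starvation- and lipid-responsive kinase, had 10.35, 10.41 and 10.61 at 16 h, against 9.62, 9.69 and 9.78 in vehicle, and rose 1.69-fold (0.76 ± 0.07 SE, adjusted p = 9.96e-06). A dim PDK4 probe set was at 3.14, 3.85 and 3.98 at 16 h, against 2.42, 2.32 and 2.15 in vehicle, near the background of 2.14, and rose by 1.36 ± 0.18 SE (adjusted p = 0.000116 among probe sets). PDK1, the hypoxia-inducible kinase, had 6.51, 6.94 and 6.92 at 16 h, against 5.83, 6.14 and 6.37 in vehicle. PDK1 rose 1.6-fold (0.68 ± 0.16 SE, adjusted p = 0.00517), with a wide spread in both groups. PDK3 went against both, with 6.39, 6.38 and 6.31 at 16 h against 7.04, 7.28 and 6.99 in vehicle. It fell 1.67-fold (-0.74 ± 0.09 SE, adjusted p = 4.79e-05). Of its dimmer probe sets, 1 at a mean signal of 2.64 fell by 0.34 ± 0.11 SE (adjusted p = 0.0258 among probe sets). Another, at a mean of 3.82, gave -0.22 ± 0.12 SE and did not pass (adjusted p = 0.148 among probe sets). PDK2, a low signal at 3.24 at 16 h and 3.37 in vehicle, did not pass (-0.12 ± 0.10 SE). PDHA1, the catalytic subunit that these kinases phosphorylate, rose 1.15-fold (0.21 ± 0.06 SE, adjusted p = 0.0102), while its other tested probe sets gave -0.14 and 0.11 without a call.

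Probe sets of the same gene did not always move together. Of the 70 probe sets 54 passed the filter, and of these 17 rose, 7 fell and 30 did not pass at 16 h, beside 23% and 16.7% of all 27306 probe sets. With 14 genes holding at least 2 tested probe sets, PKM was called in both directions against vehicle. Counting PKM, 9 of these 14 genes had tested probe sets on both sides of 0, the others being SLC2A1, PFKP, TPI1, PGK1, ENO1, PFKFB2, PDK3 and PDHA1. For PDK3 the exception was its dimmest tested probe set, at 0.12 ± 0.11 SE. The remaining 15 genes, PFKFB3 and TIGAR among them, rest on 1 tested probe set each.

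**Figure D5:**
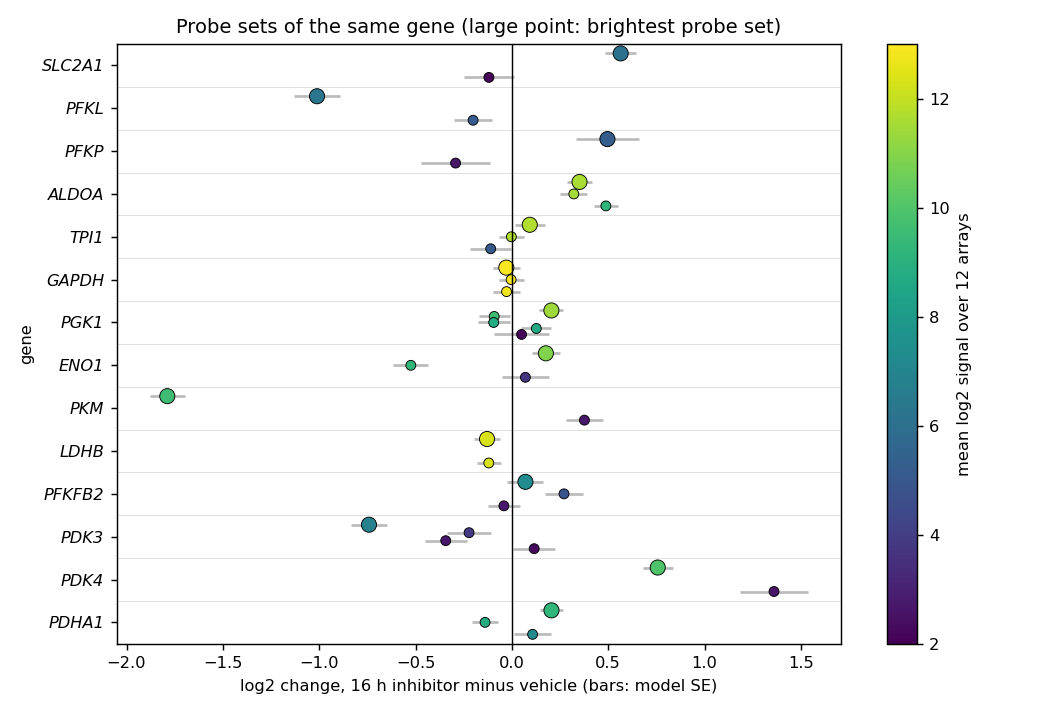
Log2 change at 16 h against vehicle (horizontal axis) of each tested probe set of the 14 genes with at least 2 (vertical axis); bars are the model SE, colour the mean log2 signal and large points the brightest probe set. The 3 ALDOA probe sets lie together on the right, while the PKM and ENO1 probe sets lie on both sides of 0.

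At 4 h and 6 h no member passed by limma with Benjamini-Hochberg adjustment, beside 0.459% of all genes that changed at 4 h and 0.0317% at 6 h. At an unadjusted p below 0.05 there was 1 member at 4 h and 0 at 6 h, beside 10.8% and 8.22% of all genes, and no alternative setting or tool variant tried called any. The lowest adjusted p was 0.449 at 4 h, for PDHA1, and 0.653 at 6 h, for SLC2A1. The largest change at 4 h was that of PDK1, at 6.08, 6.47 and 6.40 against 5.83, 6.14 and 6.37 in vehicle (0.21 ± 0.16 SE). PFKP had the largest change at 6 h, with 5.47, 5.14 and 5.21 against 4.98, 5.14 and 4.84 in vehicle (0.29 ± 0.16 SE, adjusted p = 0.703), and its arrays did not overlap by a margin of the third digit. In 4 members at 4 h (13.8%) and 5 at 6 h (17.2%) the arrays did not overlap, beside 18.3% and 14.4% of all genes. PDK4 belongs to both sets: it was at 9.79, 9.79 and 9.84 at 4 h and 9.82, 9.82 and 9.80 at 6 h, above the vehicle arrays of 9.62, 9.69 and 9.78, with log2 changes of 0.11 and 0.12 that did not pass. The PKM arrays at 4 h and the SLC2A1 arrays at 6 h were likewise separated from vehicle without a call (-0.15 ± 0.09 SE and 0.15 ± 0.08 SE).

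Set directly against each other, 6 h and 4 h gave no called member by limma (lowest adjusted p = 0.45, 1 member at an unadjusted p below 0.05), beside 0.095% of all genes. The values were higher at 6 h for 25 of 29 members (86.2%), beside 52.3% of all genes, with a median difference of 0.06 for the members and 0.01 for all genes. SLC2A1 showed the largest of these differences that was positive, with 6.10, 6.13 and 6.04 at 6 h against 5.91, 5.87 and 5.84 at 4 h (0.22 ± 0.08 SE). PFKFB3 ran the other way, at 6.00, 6.31 and 6.19 at 6 h against 6.33, 6.32 and 6.54 at 4 h (-0.23 ± 0.13 SE). Arrays of the 2 times did not overlap in 9 members, or 31%, beside 19.4% of all genes.

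Between 16 h and 6 h, again 12 members rose and 6 fell, beside 25.1% and 17.6% of all genes, which makes 18 changed members, beside 42.7% of all genes. On 19 members, or 65.5%, the arrays of the 2 times did not overlap, beside 52.3% of all genes. This comparison shares the 16 h arrays with that against vehicle, so the 2 are not independent. The values for PKM were -1.77 ± 0.09 SE, for PFKL -1.11 ± 0.12 SE and for SLC2A12 -0.81 ± 0.10 SE (adjusted p = 5.52e-08, 2.08e-05 and 6.15e-05). For PFKFB3 the value was 1.18 ± 0.13 SE and for TIGAR 1.03 ± 0.12 SE (adjusted p = 3.28e-05 and 4.7e-05). PFKP, which rose against vehicle, did not pass against 6 h (0.21 ± 0.16 SE, adjusted p = 0.322), and ENO1, which had missed against vehicle, passed (0.19 ± 0.07 SE, adjusted p = 0.0398). Among all probe sets, however, the brightest of ENO1 did not pass (limma adjusted p = 0.0583), and its second fell by 0.39 ± 0.09 SE (0.00556). Probe sets of PDHA1 were called in both directions against 6 h, at 0.19 and -0.22 (limma adjusted p = 0.0268 and 0.0238), as were those of PKM. The ENO1 call was lost when 1 of 7 arrays was left out, with adjusted p up to 0.146 without 6 h replicate 3. Those of GPI and PDK1 were lost without 1 of 6 and 1 of 4 arrays, with adjusted p up to 0.119 without 16 h replicate 2 for GPI and 0.134 without 6 h replicate 1 for PDK1.

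Neighbouring genes of the pathway were counted from a list of 49 further isozymes, transporters and pyruvate enzymes, of which 32 were tested. At 16 h 4 rose, 7 fell and 21 did not pass, with a median log2 change of -0.03. These are 12.5% and 21.9% of the tested genes of the list, beside 26% of all genes that rose and 16.8% that fell. This list, like that of the regulators below, was chosen with earlier results of these data known. The rises were SLC16A4, an orphan member of the monocarboxylate carrier family (1.93-fold, adjusted p = 0.00073), PCK2, the mitochondrial PEP carboxykinase (1.63-fold, 0.000131), PDP1, the phosphatase that reactivates pyruvate dehydrogenase (1.29-fold, 0.0391), and MINPP1, a phosphatase that also removes a phosphate from 2,3-bisphosphoglycerate (1.19-fold, 0.0119). MINPP1 was also the 1 gene of this list that had risen at 4 h, to 9.34 ± 0.07 against 8.80 ± 0.08 in vehicle (SD, n = 3 each, 1.46-fold, adjusted p = 0.00387). The largest falls were those of the glucose transporter gene SLC2A10 (1.72-fold, adjusted p = 1.76e-05), BSG, the chaperone of lactate carriers (1.58-fold, 4.63e-05), the high-affinity pyruvate and lactate carrier SLC16A7 (1.4-fold, 0.0215) and PGAM5, a mitochondrial phosphatase (1.25-fold, 0.0314). The remaining falls were those of the pyruvate genes MPC2 (1.24-fold, adjusted p = 0.000799), DLAT (1.23-fold, 0.00154) and PDHB (1.2-fold, 0.0102). These were limma values over all genes, as above.

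Of 20 listed regulators 16 were tested, and at 16 h 6 rose and 2 fell. These are 37.5% and 12.5% of the tested regulators, beside 26% and 16.8% of all genes, and 50% in both directions, beside 42.8% of all genes. ARRDC4, an arrestin that with TXNIP restrains glucose uptake, had 8.05 ± 0.12 at 16 h and 6.89 ± 0.31 in vehicle (SD, n = 3 each) and rose 2.24-fold (adjusted p = 1.86e-05), while TXNIP fell 1.18-fold (adjusted p = 0.00554). EPAS1, which encodes the hypoxia-inducible factor subunit HIF-2 alpha, rose 1.52-fold (adjusted p = 0.00116) at a low signal of 3.87 against 3.27 in vehicle. EGLN1, the oxygen-sensing prolyl hydroxylase, rose 1.32-fold (adjusted p = 0.000871). HIF1A, a far brighter signal at 11.00 against 10.95 in vehicle, did not pass (adjusted p = 0.529), nor did ARNT, VHL or EGLN3. PRKAA2, a catalytic subunit of the energy sensor AMPK, rose 1.39-fold (adjusted p = 0.00115). MYC fell 1.32-fold at 4 h (adjusted p = 0.0225) and 1.43-fold at 16 h (9.32e-05). The median log2 change of the 16 regulators was 0.19 at 16 h.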

How the data were processed

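The authors deposited log2 signals of 54675 probe sets on 12 arrays, and GCRMA, which corrects background by probe sequence, normalises between arrays and summarises probes, is named in the submitters' processing notes; its version and any filter are not given in the sources used here. Such normalisation hides a change shared by most genes. Symbols came from the platform annotation, updated through Entrez identifiers to a RefSeq table: 41097 probe sets had 1 symbol, 1801 several and 11777 none. After 62 controls were set aside, the brightest probe set stood for each of 19775 genes, and a mean signal of at least 2.11 left 12635. All 12 arrays entered limma 3.58.1 in R 4.3.3 (lmFit, eBayes, 4 groups, 8 residual and 3.69 prior degrees of freedom), with Benjamini-Hochberg adjustment over these genes; the fit was tested on simulated data. A separate fit took 27306 probe sets. The highest of 27 unspiked bacterial controls (1.87 to 2.28 per array) gave the background. The labels state no pairing by replicate number, and the main fit used none. Same-numbered arrays deviated together with r of -0.0045 to 0.235, above 0.1 in 5 of 18 pairs, and pairs of other numbers with r of -0.1865 to 0.1298. Same-numbered arrays thus reached the higher values, and whether they shared a batch was not tested. The number of arrays limits the precision. The text names every member and, from the 2 further lists, up to 4 called genes in each direction at 16 h and any called at 4 h or 6 h. Beyond that rule it names MPC2, DLAT, PDHB, MPC1, DLD, PDHX, PDPR, PC, HIF1A, ARNT, VHL and EGLN3. The members and lists were chosen with earlier results of these data known. Alternatives were quantile normalization, median centring, other filters, other choices of probe set, a trended robust prior, array weights, 2-group fits, a replicate block and leaving out each array.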

Additional observations from a re-analysis of the deposited data

Results flagged for a closer look

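For 18 members the effect of treatment against vehicle differed between 16 h and 6 h by the direct limma test of the difference, in which the vehicle arrays cancel (adjusted p below 0.05 over all genes, beside 42.7% of all genes). The effect at 16 h minus that at 6 h, on the log2 scale, was positive for PFKFB3 (1.18), TIGAR (1.03), PDK4 (0.64), PDK1 (0.46), ALDOC (0.45), HK2 (0.42), SLC2A1 (0.41), ALDOA (0.31), PGK1 (0.24), LDHA (0.20), ENO1 (0.19) and PDHA1 (0.19). It was negative for PKM (-1.77), PFKL (-1.11), SLC2A12 (-0.81), PDK3 (-0.71), ENO2 (-0.27) and GPI (-0.18). Another probe set of ENO1 and of PDHA1 fell between 6 h and 16 h, and a dim one of PKM rose, each past the threshold among probe sets.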

How the results depend on the processing

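At 4 h, 6 h and 6 h against 4 h the count of called members was 0 under all 10 other settings and with each array left out. At 16 h against vehicle 8 to 13 members rose and 5 to 7 fell over the settings, and leaving out single arrays gave 11 to 13 and 5 to 6. Of the 18 calls 12 held in every setting in which the gene was tested, which for SLC2A12 leaves out the 75th percentile filter and the preference by probe set class. For the other genes whose calls held, that preference measured the same probe set as the main fit. ALDOA, LDHA, PFKFB3 and PFKL have probe sets of the _s_at and _x_at classes alone. The preference therefore could hardly lose these calls. Averaging all probe sets per gene, the members that rose at 16 h against 6 h numbered 6 in place of 12, and the cause was not tested; leaving out single arrays gave 10 to 12 rises and 5 to 7 falls. PDHA1 then turned to -0.00518 against 6 h. One setting preferred probe sets of neither the _s_at nor the _x_at class, and kept those classes for genes with no other. There SLC2A1 turned to -0.12 against vehicle and -0.16 against 6 h, and PGK1 to -0.0945 against vehicle. For these 2 genes another probe set is measured there. HK2 no longer passed on averaged probe sets (0.19, adjusted p = 0.13), the PFKP call with quantile normalization, averaged probe sets and the 2-group fit (adjusted p up to 0.587), the GPI call without a filter and in the 2-group fit, and the PGK1 and PDHA1 calls in the 2-group fit and by probe set choice. LDHB passed as a fall with the trended robust prior (adjusted p = 0.00867), and ENO1 as a rise under 4 settings. With the replicate block 13 members rose and 6 fell at 16 h against vehicle, and 12 and 7 against 6 h; 7 of 12 arrays deviated most like those of their own number. Scaling moved the median change of all genes at 16 h to 0.00 with quantile normalization and 0.03 with median centring, beside 0.05. Counts over all genes ran from 25 to 136 at 4 h (58 as reported), 0 to 79 at 6 h (4) and 0 to 59 for 6 h against 4 h (12).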
